A study of Mus musculus with 4 samples.

Results

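The transporters described here are the facilitative sugar carriers (Slc2), the sodium-coupled sugar and solute carriers (Slc5), the bile acid carriers (Slc10), the sulphate and carboxylate carriers (Slc13 and Slc16), the organic ion carriers (Slc22 and Slco), the nucleoside and phosphate carriers (Slc28 and Slc34) and the ABC pumps of subfamilies A, B, C, D and G. They were chosen by the form of their symbols, with no measured value. Of 29652 genes in any complete list of the series, 126 were such transporters. The mouse annotation holds 141, so 15 were in none.

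The series consists of 4 single-cell RNA sequencing libraries from fetal mouse pancreas, 1 per group, on a C57BL/6 background. Cells were dissociated, labelled for the epithelial surface protein EpCAM and sorted by flow cytometry. The 2 KO groups, E15.5 KO and E13.5 KO, carried Pdx-Cre together with Setd2 f/f, and the 2 WT groups, E15.5 WT and E13.5 WT, carried Setd2 f/f. Setd2 encodes the methyltransferase of histone H3 lysine 36 trimethylation, and all 4 groups have the floxed allele. Pdx-Cre acts in the Pdx1 domain of the foregut, so cells from outside it keep an intact gene. How many embryos each library came from is not stated in the labels.

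The data are gene lists: for each library a gene is listed or not listed, with no count and no level. Depth is unknown, and 1 library per group allows no test and no error. The number of genes was 25474 in E15.5 KO, 26341 in E13.5 KO and 25463 in E13.5 WT. The E15.5 WT list breaks off after 167 genes and covers 2 of the transporters. Setd2 was in each of the 3 complete lists, which checks no genotype, since a listing does not separate the deleted part from the rest. A gene can be missing because fewer cells of a type were caught or because each cell held less of its RNA, and these cannot be told apart here. The 14 endocrine and the 14 exocrine and ductal pancreas markers were each complete in the 3 full lists. This is not particular to pancreas. Hepatocyte markers stood at 15 of 16 in each. Neural, erythroid, endothelial, immune and mesenchyme and muscle markers were complete in both E13.5 lists, though not in E15.5 KO.

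Membrane transporters decide which solutes a cell takes up or gives off. Sugar carriers feed glucose to the glucose-sensing beta cell, while ABC pumps use ATP to export lipids, bile salts and drug conjugates. Hepatocytes and the proximal tubule of the kidney are the textbook sites of organic ion and bile acid transport, and the pancreas is known for few of these genes.

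Across the families most transporters were listed. The E15.5 KO list held 114 of the 141, the E13.5 KO list 120 and the E13.5 WT list 117. In all 3 complete lists stood 110 (78.0%), in 1 or 2 of them 16 (11.3%), and in none 15 (10.6%). Over the 21951 protein-coding genes of the annotation the same shares were 73.1%, 8.70% and 18.2%. The share in all 3 lists was thus somewhat higher for the transporters than for coding genes at large, and the share in none was lower. Slc10 (7 genes), Slc34 (3), Abcc (10), Abcd (4) and Abcg (6) were complete in every full list. Slc22 had 13 of 25 genes and Slco 8 of 15 in all 3, and these families supplied 11 of the 15 genes found in none.

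**Figure D1:**
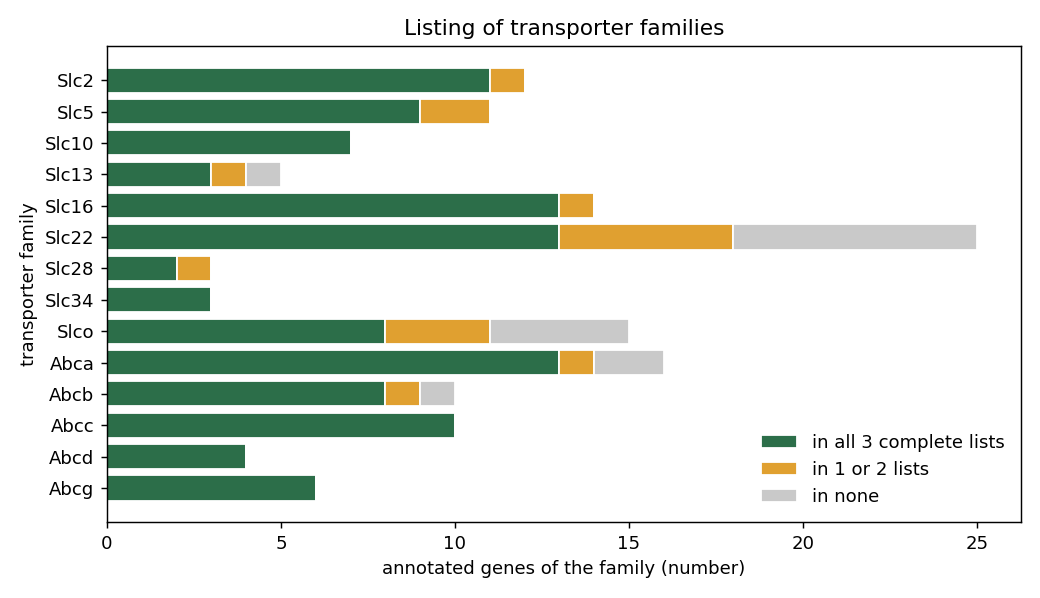
Number of annotated genes per transporter family (horizontal axis), split by whether they were in all 3 complete lists, in 1 or 2 of them or in none. Slc22 and Slco have the longest grey and orange segments, with 7 and 4 genes in none.

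The facilitative sugar carriers were nearly complete. The E15.5 KO and the E13.5 KO lists held 12 of the 12 Slc2 genes and the E13.5 WT list 11. Slc2a1, which supplies basal glucose to most cells, Slc2a3 of neurons, Slc2a4, the insulin-responsive carrier of muscle and fat, and Slc2a5, the intestinal fructose carrier, were in every full list. Slc2a2 (ENSMUSG00000027690, chromosome 3, 28697903 to 28731359, GRCm38), the low-affinity glucose carrier of beta cells, hepatocytes and proximal tubule, was in each as well. The exception was Slc2a7 (chromosome 4, 150148972 to 150168482), an intestinal member, which was in E15.5 KO and E13.5 KO and not in E13.5 WT.

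Of the 11 Slc5 genes, 9 were in E15.5 KO, 10 in E13.5 KO and 11 in E13.5 WT. Slc5a1 and Slc5a2, the sodium-glucose cotransporters of gut and kidney, were in all 3, as were Slc5a6, the biotin and pantothenate carrier, and Slc5a7, the choline carrier of cholinergic neurons. Slc5a11 (chromosome 7, 123214780 to 123273253), a myo-inositol carrier, was absent from E15.5 KO and present in E13.5 KO and E13.5 WT. Slc5a12 (chromosome 2, 110597298 to 110647779), a low-affinity lactate carrier of kidney and gut, was in E13.5 WT alone.

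The carboxylate carriers divided by family. Slc16 had 14 of 14 genes in E15.5 KO and 13 in each of E13.5 KO and E13.5 WT, among them Slc16a1, the lactate and pyruvate carrier, and Slc16a3, the lactate exporter of glycolytic cells. Slc16a14 (chromosome 1, 84905898 to 84935134), an orphan, was in E15.5 KO alone. Of the 5 Slc13 genes, E15.5 KO held 3 and E13.5 KO and E13.5 WT 4 each. Slc13a5 (chromosome 11, 72241989 to 72267222), which takes citrate into hepatocytes, was missing at E15.5 KO only, and Slc13a1, the renal sulphate carrier, was in no list. Among the nucleoside carriers, Slc28a2 and Slc28a3 were in every full list, while Slc28a1 (chromosome 7, 81114799 to 81170416), the pyrimidine nucleoside carrier of kidney, gut and liver, was absent from E15.5 KO and present in E13.5 KO and E13.5 WT. Slc28a2 shares 18% of its windows of 100 bases with Gm14085, so its listing is uncertain. The phosphate carriers Slc34a1, Slc34a2 and Slc34a3 were in all 3.

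Among the genes of bile acid transport, those of the Slc10 and ABC families were listed throughout. Slc10a1, the sodium-coupled bile acid carrier of hepatocytes, Slc10a2, its ileal and renal counterpart, Abcb11, the bile salt export pump, Abcb4, which exports phosphatidylcholine into bile, Abcc2 and Abcc3, which export conjugates, and the sterol exporters Abcg5 and Abcg8 were in all 3 complete lists. Abcg5 and Abcg8 overlap on opposite strands, and whether the counting used strand is not stated, so their listings may not be independent. Of 16 genes of bile acid handling outside these families, 14 were in E15.5 KO, 13 in E13.5 KO and 14 in E13.5 WT. Cyp7a1, the rate-limiting enzyme of bile acid synthesis, and Slc51b, a subunit of the basolateral bile acid exporter, were in none, whereas Slc51a, the other subunit, was in all 3.

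The sodium-independent Slco carriers take up bile acids, thyroid hormones and prostaglandins. Each full list held 9 of the 15 genes, but not the same 9. Slco2a1, the prostaglandin carrier, Slco2b1, Slco3a1, Slco4a1, Slco4c1, Slco5a1, Slco1a5 and Slco1a6 made up the 8 in all lists. Each library then had 1 further gene of its own, and these 3 genes are neighbours within the Slco1 cluster of chromosome 6. Of 21951 protein-coding genes, 281 were in E15.5 KO alone, 331 in E13.5 KO alone and 347 in E13.5 WT alone. Slco1a4 (141805440 to 141856199), a carrier of liver and the blood-brain barrier, was in E15.5 KO alone. Slco1a1 (141907282 to 141946962), of liver and kidney, was in E13.5 KO alone. Slco1b2 (141629518 to 141686646), the hepatocyte carrier of organic anions and bilirubin, was in E13.5 WT alone. Their outer neighbour Slco1c1, the thyroxine carrier of the blood-brain barrier, was in none. The testis genes Slco6b1, Slco6c1 and Slco6d1 on chromosome 1 were in none either, beside the renal Slco4c1, which was in all 3.

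The promoters of the 3 Slco1 genes listed in a single library are shown because they have few CpG dinucleotides, with that of Slc2a2, the glucose carrier of the beta cell, and of Slc16a1, the lactate carrier found in most cells, for comparison. Each runs 5′ to 3′ from 250 bases before to 50 after the RefSeq start on GRCm38.p6, with CpG in capitals. The positions are chr6:141856171-141856470 (minus strand) for Slco1a4, chr6:141946913-141947212 (minus) for Slco1a1, chr6:141629268-141629567 (plus) for Slco1b2, chr3:28697653-28697952 (plus) for Slc2a2 and chr3:104638414-104638713 (plus) for Slc16a1.
Slco1a4: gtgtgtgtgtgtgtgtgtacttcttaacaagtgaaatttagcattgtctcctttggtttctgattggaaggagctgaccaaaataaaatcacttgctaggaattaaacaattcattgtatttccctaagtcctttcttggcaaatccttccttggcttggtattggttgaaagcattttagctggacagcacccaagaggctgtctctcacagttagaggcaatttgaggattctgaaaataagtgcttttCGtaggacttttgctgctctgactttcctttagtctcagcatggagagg
Slco1a1: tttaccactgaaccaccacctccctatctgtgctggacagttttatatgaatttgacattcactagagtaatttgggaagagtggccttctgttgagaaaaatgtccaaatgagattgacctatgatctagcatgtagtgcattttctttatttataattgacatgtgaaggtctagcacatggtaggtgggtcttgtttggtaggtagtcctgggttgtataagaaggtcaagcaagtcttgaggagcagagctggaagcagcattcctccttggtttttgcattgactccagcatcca
Slco1b2: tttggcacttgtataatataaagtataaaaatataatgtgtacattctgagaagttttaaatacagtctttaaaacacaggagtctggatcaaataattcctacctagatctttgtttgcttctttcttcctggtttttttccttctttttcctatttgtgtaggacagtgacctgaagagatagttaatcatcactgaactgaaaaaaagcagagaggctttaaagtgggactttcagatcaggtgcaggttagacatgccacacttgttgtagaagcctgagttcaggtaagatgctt
Slc2a2: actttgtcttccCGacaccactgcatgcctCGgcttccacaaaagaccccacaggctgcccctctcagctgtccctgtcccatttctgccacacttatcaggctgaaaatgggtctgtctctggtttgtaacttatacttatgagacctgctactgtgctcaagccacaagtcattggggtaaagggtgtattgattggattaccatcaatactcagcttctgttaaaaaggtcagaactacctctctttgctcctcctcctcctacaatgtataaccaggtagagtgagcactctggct
Slc16a1: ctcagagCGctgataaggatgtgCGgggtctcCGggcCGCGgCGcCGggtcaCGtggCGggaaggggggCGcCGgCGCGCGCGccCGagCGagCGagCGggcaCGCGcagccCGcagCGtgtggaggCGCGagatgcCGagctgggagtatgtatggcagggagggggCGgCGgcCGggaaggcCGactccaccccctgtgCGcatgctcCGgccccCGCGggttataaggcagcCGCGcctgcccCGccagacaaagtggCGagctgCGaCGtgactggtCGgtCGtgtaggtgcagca
Slco1a4 had 1 CpG, Slco1a1 had 0, Slco1b2 had 0, Slc2a2 had 2 and Slc16a1 had 42, against a median of 7 over 27025 promoters of the same length. Of the 31 transporters missing from at least 1 complete list, 28 had a promoter in the table, with a median of 3.5 CpG (0 to 25), and 23 of the 28 were at or below the median of all promoters. Promoters of other coding genes missing from a list were not counted, so whether this is particular to transporters was not tested. The same count for the genes in all lists was void, because 83 of the 110 (75.5%) had a promoter there, under the 80% required. Slc2a2, in every full list, shows that a promoter with few CpG can belong to a listed gene. The other genes of the Slco1 cluster had few CpG as well. Slco1a6 had 1 and Slco1a5 had 3, and both were in every full list, while Slco1c1, in none, had 1.

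Slc22, the organic ion carriers, is the largest of the families, and 5 of its 25 genes were in 1 or 2 lists. E15.5 KO held 14 of the 25, E13.5 KO 17 and E13.5 WT 14. Slc22a2, a cation carrier of kidney, Slc22a3, the extraneuronal monoamine carrier, Slc22a5, the carnitine carrier, Slc22a8, an organic anion carrier of kidney and choroid plexus, and Slc22a17, a lipocalin receptor, were in all 3. Slc22a5 and Slc22a21 share 12.9% and 10.6% of their 100-base windows with each other, so neither listing is certain on its own. Slc22a7 (chromosome 17, 46432183 to 46438457), an anion carrier of liver and kidney, was absent from E15.5 KO and present in E13.5 KO and E13.5 WT. Slc22a12 (chromosome 19, 6535845 to 6543032), the urate reabsorption carrier, Slc22a20 (chromosome 19, 5970234 to 5986143), of the olfactory mucosa, and Slc22a28 (chromosome 19, 8062209 to 8131982) were in E13.5 KO alone. Slc22a14 (chromosome 9, 119169455 to 119365553), a sperm carrier, was in E15.5 KO alone. Exons of Slc22a12 overlap Nrxn2 on the other strand, and Nrxn2 was in all 3 lists. Slc22a6, the main organic anion carrier of the proximal tubule, Slc22a16, Slc22a19, Slc22a22, Slc22a26, Slc22a27 and Slc22a30 were in none.

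Slc22a28 cannot be separated well from its neighbour Slc22a30. Their coding sequences of 1659 bases are 98.8% identical, with 20 differences and a shared run of 431 bases, and 37.0% of the 100-base windows in Slc22a28 transcripts occur in another gene. The stretch below, coding positions 618 to 677 counted from the start codon, is the first 60-base window to hold as many differences as any, which are in capitals, and it shows how few bases could assign a read. Both genes are on the minus strand of chromosome 19, and the sequences were read from the GENCODE transcripts.
Slc22a28: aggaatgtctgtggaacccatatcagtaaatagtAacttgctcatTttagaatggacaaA
Slc22a30: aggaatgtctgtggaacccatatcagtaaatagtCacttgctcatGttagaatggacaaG
The window holds 3 of the 20 differences. The neighbour Slc22a29, listed in all 3 libraries, is 92.3% identical to Slc22a28. A listing of Slc22a28 in E13.5 KO is therefore uncertain. The Slco1a genes are 84.2% to 89.3% identical in coding sequence, with shared runs of 96 to 139 bases, but 0.640% of Slco1a4 windows and 0.614% of Slco1a1 windows occur in another gene, and none of Slco1b2.

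**Figure D2:**
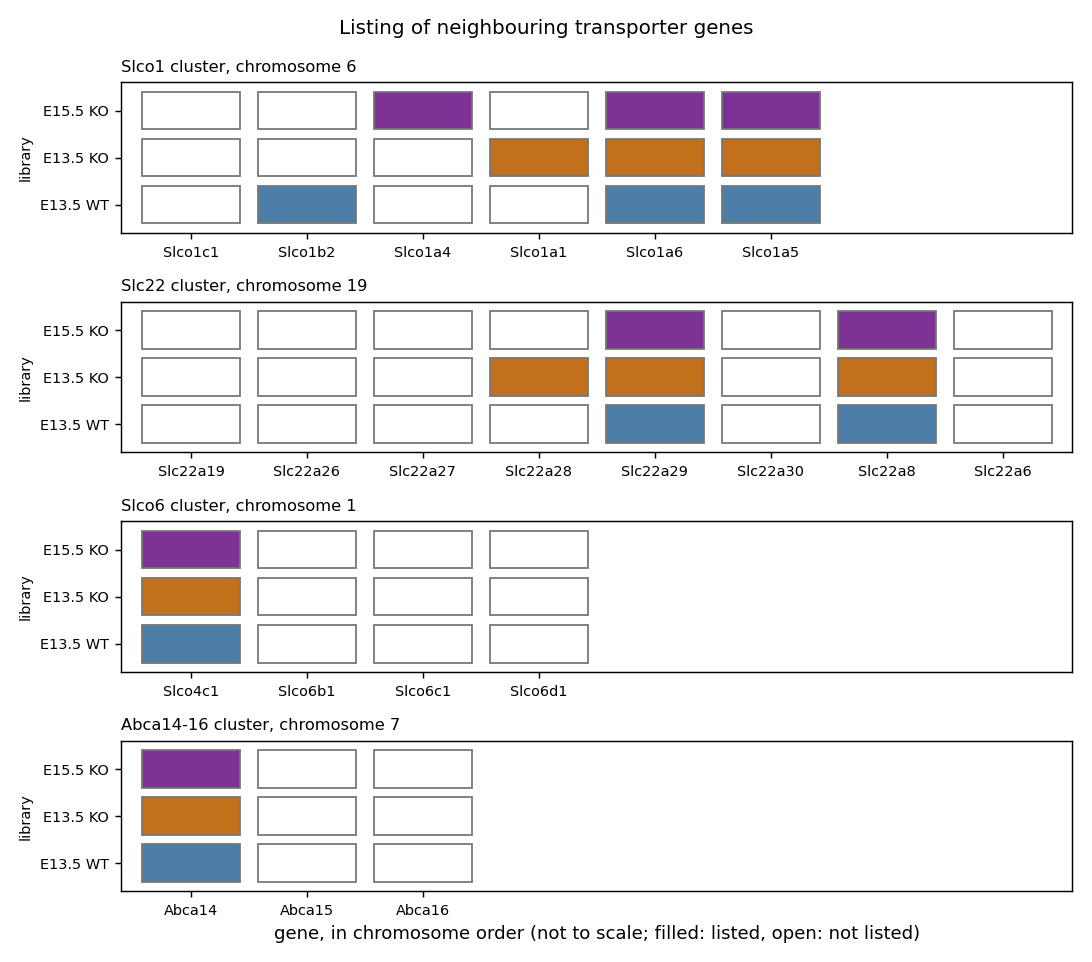
Neighbouring transporter genes in chromosome order (horizontal axis, not to scale) against library (vertical axis), filled where the gene was listed. In the Slco1 cluster Slco1a4, Slco1a1 and Slco1b2 are each filled in a different library, and in the Slc22 cluster Slc22a29 and Slc22a8 are filled in all 3.

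Of the ABC transporters, 41 of 46 genes (89.1%) were in all 3 complete lists, against 69 of 95 (72.6%) of the Slc and Slco genes. The sulphonylurea receptor Abcc8 (ENSMUSG00000040136, chromosome 7, 46104523 to 46180033), a subunit of the ATP-sensitive potassium channel of beta cells, was in every full list, together with Kcnj11, the pore subunit outside these families. Also in all 3 were Abca1 and Abcg1, which export cholesterol, the mitochondrial Abcb8 and Abcb10, the multidrug exporters Abcc1, Abcc4 and Abcc5, and the peroxisomal Abcd2 and Abcd3. Abcb6, a porphyrin carrier, shares 45.2% of its windows with Gm29253, which overlaps it on the same strand, so its listing is uncertain. Abca13 (chromosome 11, 9191942 to 9684259), a very large lipid carrier, was in E13.5 KO alone. Abcb1a (chromosome 5, 8660077 to 8748575), a P-glycoprotein that pumps drugs out of gut and brain endothelium, was in E13.5 WT alone, while its sister gene Abcb1b was in all 3. Their coding sequences are 88.2% identical with a shared run of 338 bases, and 9.23% of Abcb1a windows occur in Abcb1b or Abcb4. Abca15 and Abca16, testis genes beside Abca14 on chromosome 7, and Abcb5 were in none, and Abca14 was in all 3.

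**Figure D3:**
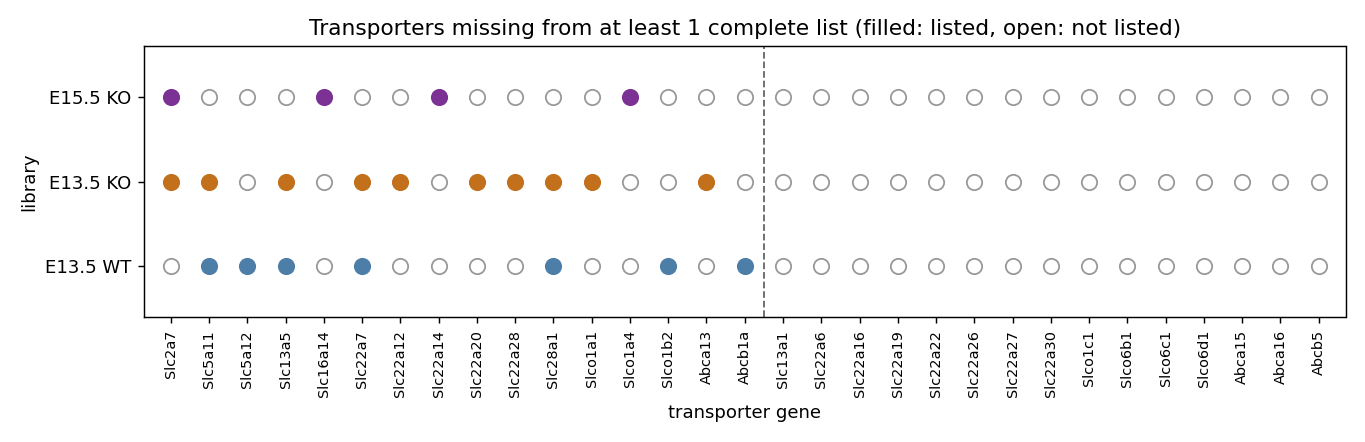
The 31 transporters missing from at least 1 complete list (horizontal axis) against library (vertical axis), filled where listed. Left of the dashed line are the 16 in 1 or 2 lists, of which 11 are filled in a single library. These are 3 in E15.5 KO, 5 in E13.5 KO and 3 in E13.5 WT. Of 1909 protein-coding genes in 1 or 2 lists, 281 were in E15.5 KO alone, 331 in E13.5 KO alone and 347 in E13.5 WT alone. Right of it are the 15 in none.

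The comparison of pancreas with liver and kidney transporters used organ lists written from general knowledge. On them a gene stands under every organ it is known for. These and the marker lists were chosen with earlier results of these data known. The pancreas list held Slc2a2, Abcc8 and Slc28a3, the last known from human pancreas, and all 3 were in every full list. So were 15 of 15 pancreatic transporters outside these families, such as Cftr and Kcnj11. Of the 30 liver transporters, 21 were in E15.5 KO (70%), 25 in E13.5 KO (83.3%) and 24 in E13.5 WT (80%). Of the 42 kidney transporters, 28 were in E15.5 KO (66.7%), 34 in E13.5 KO (81.0%) and 32 in E13.5 WT (76.2%). Over all 141 transporters the shares were 80.9%, 85.1% and 83.0% in the same order, and over protein-coding genes 76.2%, 78.1% and 77.9%. The E13.5 shares of the liver and kidney lists were thus near the coding share, and the E15.5 KO shares were lower. Intestinal transporters were listed for 17, 19 and 20 of 21 in E15.5 KO, E13.5 KO and E13.5 WT, and those of testis for 8, 7 and 7 of 14. The broadly expressed transporters were complete, with 36 of 36 in every full list. Of the 31 transporters missing from some list, 17 were on the liver or the kidney list, as were 42 of the 110 in all lists. The pancreas list is too short for its complete listing to set it apart from the others.

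Liver and kidney cell markers were checked beside these counts. Of 16 hepatocyte markers, 15 were in each full list, Alb and Afp among them, and Cyp7a1 was in none. Of 16 kidney markers, 12 were in E15.5 KO, 14 in E13.5 KO and 13 in E13.5 WT. Six2, the nephron progenitor factor, was in E13.5 KO and E13.5 WT and not in E15.5 KO, Umod was in E13.5 KO alone, and the defining collecting duct gene Aqp2 was in none. The part of such cells, or of traces of their RNA, in the listing of liver and kidney transporters was not tested.

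**Figure D4:**
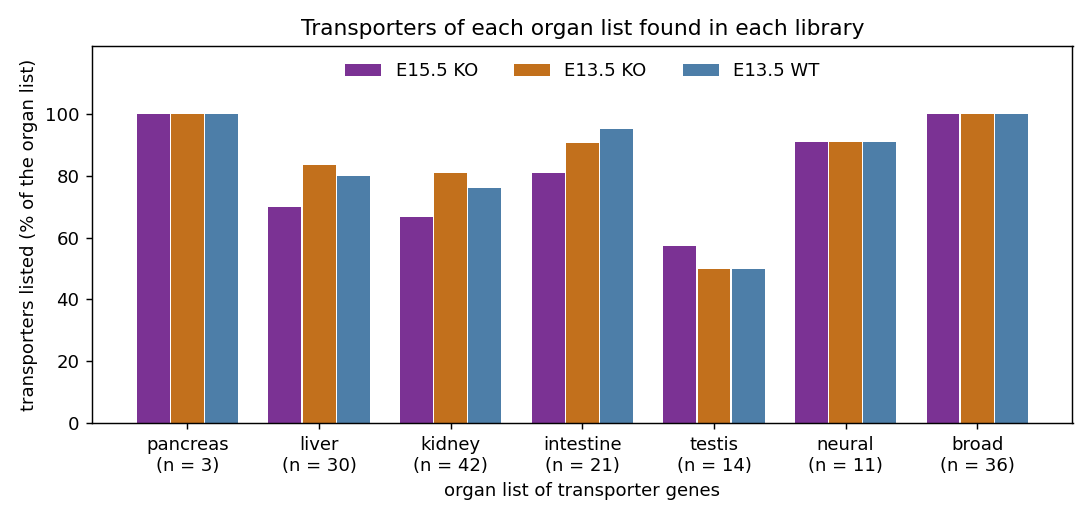
Share of each organ list of transporters found in each library (vertical axis, percent; n is the length of the list). The pancreas and broad lists stand at 100% in every library, and the liver and kidney bars are lower in E15.5 KO than in the other libraries, at 70% and 66.7%. Over protein-coding genes the share was 76.2% in E15.5 KO, 78.1% in E13.5 KO and 77.9% in E13.5 WT.

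The comparison of E15.5 KO with E13.5 KO sets the ages of the mutant pancreas side by side, with 1 library each. Age and differences between libraries cannot be told apart in it. The lists held 25474 genes in E15.5 KO and 26341 in E13.5 KO. Of the 123 transporters in either list, 111 were in both, 3 (2.44%) were in E15.5 KO only and 9 (7.32%) in E13.5 KO only. Among 17602 protein-coding genes in either list these shares were 2.55% and 5.03%. The 3 in E15.5 KO only were Slc16a14, Slc22a14 and Slco1a4. The 9 in E13.5 KO only were Slc5a11, Slc13a5, Slc22a7, Slc22a12, Slc22a20, Slc22a28, Slc28a1, Slco1a1 and Abca13, and 7 of them are on the liver or the kidney list, which together hold 59 of the 141 transporters. Slco1a4, in E15.5 KO only, is on the liver list too. Of these, Slc5a11, Slc13a5, Slc22a7 and Slc28a1 were in E13.5 WT too. Taking the directions together, 9.76% of transporters were in 1 list only, against 7.57% of protein-coding genes and 17.8% of all genes. The difference from the coding background amounts to a few genes.

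Markers of other cell types also differed between these libraries. Of 12 neural markers 7 were in E15.5 KO and 12 in E13.5 KO, and E15.5 KO held 6 of 8 endothelial markers, 10 of 12 erythroid, 9 of 10 immune and 10 of 12 mesenchyme and muscle markers, against 8, 12, 10 and 12 in E13.5 KO. Chat and Slc18a3, which make and package acetylcholine, were absent from E15.5 KO and present in E13.5 KO, while the choline carrier Slc5a7 and Slc10a4, a vesicular orphan of cholinergic neurons, were in both. The part of these cells in the transporter counts was not tested. Of 19 genes of glucose handling, 18 were in E15.5 KO and 19 in E13.5 KO, the exception being Pck1 of gluconeogenesis. The 14 nuclear receptors and regulators of transporter genes, Hnf4a among them, were in each full list.

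Setting E13.5 KO beside E13.5 WT compares Pdx-Cre with Setd2 f/f against Setd2 f/f, with 1 library each. Loss of Setd2, the presence of Cre and differences between libraries cannot be told apart in it. Of the 123 transporters in either list, 114 were in both, 6 (4.88%) were in E13.5 KO only and 3 (2.44%) in E13.5 WT only. Among 17668 protein-coding genes the shares were 3.17% and 2.91%. The 6 in E13.5 KO only were Slc2a7, Slc22a12, Slc22a20, Slc22a28, Slco1a1 and Abca13. The 3 in E13.5 WT only were Slc5a12, Slco1b2 and Abcb1a. In all, 7.32% of transporters were in 1 list only, against 6.08% of protein-coding genes and 16.3% of all genes, which is near the coding background. Of the 141 transporters, Slc2a7 alone was in both KO lists and not in the E13.5 WT list. Among 21951 protein-coding genes, 229 showed that pattern. The 3 genes of the pancreas list were in both lists, and a listing without a level cannot show a change in their amount. All markers of endothelium, erythroid cells, immune cells, nerve, mesenchyme and muscle on the lists were in both. Gut markers numbered 7 of 10 in E13.5 KO and 9 of 10 in E13.5 WT, where Fabp6 and Alpi were listed in addition, and kidney markers 14 of 16 in E13.5 KO, with Umod, and 13 of 16 in E13.5 WT. Among the transporters that differed, Slc2a7 and Abcb1a are on the intestinal list, Slc22a12, Slc22a28 and Slco1a1 on the kidney list and Slc5a12 on both. Slc22a28, Slco1a1 and Slco1b2 are on the liver list. On the intestinal list, Abcb1a and Slc5a12 were in E13.5 WT only, like Fabp6 and Alpi, and Slc2a7 was in E13.5 KO only. On the kidney list, Slc22a12, Slc22a28 and Slco1a1 were in E13.5 KO only, like Umod, and Slc5a12 was in E13.5 WT only. On the liver list, Slc22a28 and Slco1a1 were in E13.5 KO only and Slco1b2 in E13.5 WT only. The part of gut, kidney or liver cells in these listings was not tested.

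For E15.5, KO and WT could be set side by side for 2 transporters, those within reach of the broken-off WT list. Slc22a18 (chromosome 7, 143473736 to 143499334), an imprinted organic cation carrier, and Slc5a5 (chromosome 8, 70882889 to 70892757), the iodide carrier of thyroid and stomach, stood in all 4 lists. Over this stretch 4.65% of the genes in either E15.5 list were in 1 only, and 6.25% between E15.5 WT and E13.5 WT.

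Median transcript length and GC content were lowest for the transporters in none of the complete lists, as a description with no test. The 16 in 1 or 2 lists had nearly the same median GC content as the 110 in all. The longest annotated transcript had a median of 2854 bases for the 15 in none, 3053 for the 16 in 1 or 2 lists and 4140 for the 110 in all. The medians over protein-coding genes with the same listing were 1728, 2082 and 3262 bases. The median GC content was 40.3% for the 15 in none, 50% for the 16 and 50.4% for the 110, against 43.0%, 48.8% and 49.9% over protein-coding genes. Shorter transcripts and lower GC content among unlisted genes were seen in coding genes in general.

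**Figure D5:**
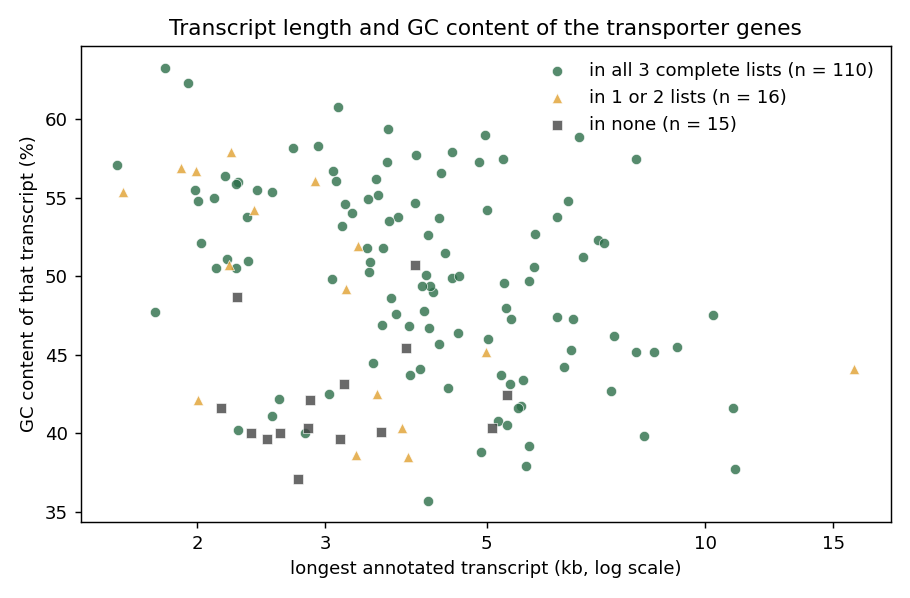
Length of the longest annotated transcript (horizontal axis, kb, log scale) against its GC content (vertical axis, percent), 1 point per transporter gene, by listing. The 15 genes in none lie mostly at low GC, with a median of 40.3%, and the 110 in all lists spread from 35.7% to 63.3%.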

How the data were processed

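The files deposited by the authors hold no measured value: each has an Ensembl identifier and a symbol per line, and presence on the list was the measure (unit: other). Seurat and mm10 are named in the submitters' processing notes. No source used here gives the aligner, the filters or the criterion for a listing. The plan's parts that need counts were not used. Groups came from sample titles.

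Members were found by symbol patterns, and all 126 matched GENCODE M21 (GRCm38, the assembly mm10 names) by identifier. Unlisted members came from that annotation. The members, organ lists and marker lists were chosen with earlier results of these data known. Named were members that differed or were in no list, those on the organ lists and known family members.

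Shared sequence was the percentage of a gene's 100-base transcript windows found exactly in another gene. Coding sequences were aligned with Biopython 1.88, and promoters came from RefSeq (GRCm38.p6), with 111 of 141 matched. Counting was tested on simulated data. Other name patterns, identifier matching, coding genes, another denominator and stricter organ lists were tried. Some genes are counted but not reported by name here.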

Additional observations from a re-analysis of the deposited data

How the results depend on the processing

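Matching by identifier and keeping protein-coding members left the member counts per list and in 1 list only as they were. That outcome was fixed in advance, because both choices keep the same 126 listed members. Without the pseudogene Slco6b1, 14 of 140 members were in none. Wider name patterns added Slc5a4a to every full list and Slc5a4b to E13.5 WT, giving 115 members in E15.5 KO, 121 in E13.5 KO and 119 in E13.5 WT. Members in E13.5 WT only then numbered 4 in place of 3. Over the 126 listed members the shares were 90.5%, 95.2% and 92.9%, and over the 141 annotated ones 80.9%, 85.1% and 83.0%. The background share in 1 list only fell with protein-coding genes alone to 7.6% from 17.8% of all genes between the KO ages, and to 6.1% from 16.3% between the E13.5 genotypes. The other genes were thus more often in 1 list only, and the cause was not tested. With genes known for 1 organ only, the 12 liver transporters stood at 83.3% in E15.5 KO, 91.7% in E13.5 KO and 100% in E13.5 WT, so that E13.5 KO was then below E13.5 WT. The 16 kidney transporters stood at 68.8%, 75.0% and 68.8%. Without Slc22a26 to Slc22a30, chosen after the data were seen, the shares in E15.5 KO, E13.5 KO and E13.5 WT were 80.8%, 92.3% and 92.3% for liver and 73.0%, 86.5% and 83.8% for kidney. In both alternatives the liver share in E15.5 KO was above the coding share of 76.2%, unlike with the whole list. Alternatives that need counts were not run, and no other stretch of the E15.5 WT list could be used. No paired analysis was possible because only 1 library stands for each group. Without depths, an unlisted transporter cannot be called unexpressed.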

Other observations

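Transporters of the liver and kidney outside the families gave the following counts. Of 14 kidney transporters, 9 were in E15.5 KO, 11 in E13.5 KO and 12 in E13.5 WT. Slc9a3, the sodium-proton exchanger of the proximal tubule, was in E15.5 KO alone, and Slc17a1 was in E13.5 WT alone. Slc26a4, Slc17a3 and Slc47a1 were absent from E15.5 KO and present in both E13.5 lists. Of 14 liver transporters, 12 were in E15.5 KO, 13 in E13.5 KO and 13 in E13.5 WT. Of 10 gut markers, 7 were in E15.5 KO, and Alpi, the intestinal alkaline phosphatase, was in E13.5 WT alone.

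Slc5a4a and Slc5a4b, sodium-coupled sugar carriers whose symbols end in a letter, fall outside the name patterns. Slc5a4a was in all 3 complete lists and Slc5a4b in E13.5 WT alone. Partner proteins of the transporters, such as Bsg, the chaperone of the lactate carriers, were listed alike in the 3 full lists, 13 of 15 in each, with Slc51b and Rsc1a1 in none.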
